A study of Mus musculus with 12 samples.

Results

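The genes described here serve the unfolded protein response and protein folding in the endoplasmic reticulum (ER). They were measured by messenger RNA sequencing of CD4 T cells of the mouse, either Pkm2 knockout (KO) or wild-type (WT). The set holds 33 genes, taken by symbol from the 55450 genes of the deposited tables. No measured value entered the choice rule, but the members were chosen with earlier results of these data known. All 33 were found, and all 33 passed the filter on low counts in every comparison. The 4 groups, of 3 libraries each, were: KO stimulated, WT stimulated, KO resting and WT resting. Spleen and lymph nodes were the source of the naive T cells, and every culture held IL7 at 25 ng/mL (interleukin 7, a survival factor of resting T cells) and lasted 24 hours. For the stimulated groups the wells had been coated with anti-CD3 at 1 ug/mL and anti-CD28 at 2 ug/mL, a pair of antibodies that mimics antigen with costimulation. The labels elsewhere call the cells splenocytes and the culture overnight, and they give neither the knockout's allele and driver nor the age of the mice. CD4 T cells were positively selected before RNA extraction. Nothing states that the libraries of a group stem from separate animals, so a p-value here reflects the spread among libraries, which could be technical in part.

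Proteins bound for the cell surface or for secretion enter the ER through the Sec61 channel and fold there with the help of chaperones, sugar-binding lectins and enzymes that form disulfide bonds. Chains that fail to fold are sent back to the cytosol and degraded. When unfolded chains build up, the ER sensors IRE1 (Ern1), ATF6 and PERK (Eif2ak3) are freed from the chaperone BiP (Hspa5) and raise genes of folding and degradation. IRE1 does so by splicing the mRNA of the transcription factor XBP1, and a lymphocyte that becomes a plasma cell is a known case in which this programme is strongly used. The counts used here are per gene, so spliced and unspliced Xbp1 mRNA were added together.

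Library totals ran from 63266477 to 76891786 counts. Member counts ran from 58 (Derl3) to 81342 (Calr) per library, so that counting error was small for all members but Derl3 and Sec61g. Levels are given as CPM, counts relative to the TMM-scaled library size, TMM being a scaling that lets most genes stay level between libraries. Sums of cell type markers are the exception, being CPM of the library totals without TMM. Pkm, the targeted gene, which encodes pyruvate kinases M1 and M2 of glycolysis, lay at 1050 ± 14.6 CPM in KO stimulated and 2480 ± 35.5 in WT stimulated cells, and at 185 ± 11.7 in KO resting and 455 ± 47.4 in WT resting cells (SD, n = 3 each). Sex-linked transcripts differed by condition: Xist, the RNA of the inactive X chromosome, lay at 941 to 1130 CPM in the 6 stimulated libraries and at 0.0496 to 0.0867 in the 6 resting ones, while the Y-linked helicase gene Ddx3y had 0 counts in stimulated and 143 to 167 CPM in resting libraries. Condition, sex-linked transcripts and the deposited table therefore cannot be told apart in any comparison of stimulated with resting cells. Of 12 CD4 T cell markers none was at 0, with sums of 2730 to 2790 CPM in KO stimulated and 2560 to 2650 in WT stimulated libraries, against 6920 to 7090 in KO resting and 5840 to 6800 in WT resting libraries. Myeloid markers were far lower after stimulation: 10 of them summed to 73.0 to 78.7 CPM in KO stimulated and 44.0 to 57.8 in WT stimulated libraries, against 958 to 981 in KO resting and 960 to 2440 in WT resting libraries. Sums of B cell and CD8 T cell markers fell less. The 10 B cell markers summed to 754 to 783 CPM in KO and 396 to 591 in WT stimulated libraries, against 1770 to 1900 and 1250 to 2420 at rest. The 2 CD8 T cell markers summed to 28.5 to 32.7 CPM in KO and 15.4 to 21 in WT stimulated libraries, against 49.8 to 68.5 and 45.8 to 51.9 at rest. In such bulk samples, fewer cells of a type and less RNA per cell cannot be told apart, and the part of these cells in the values below was not tested.

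Folding genes were among the more abundant transcripts. The median over members of the mean level was 105 CPM, against 12.4 CPM over the 17460 genes tested across all libraries. The members summed to 8640, 8650 and 8540 CPM in KO stimulated and 8870, 9050 and 8990 CPM in WT stimulated libraries, against 3810, 3980 and 3910 CPM in KO resting and 4370, 3860 and 4060 CPM in WT resting libraries. Every stimulated library lay far above every resting one, and WT resting replicate 1 was the highest resting library. Per kilobase of the principal transcript, the scale on which genes can be compared, calreticulin (Calr), a lectin chaperone, led in all 4 groups with 528 CPM per kilobase in KO stimulated and 563 in WT stimulated cells, against 199 in KO resting and 196 in WT resting cells. Hsp90b1, the ER member of the HSP90 chaperones, the disulfide isomerase Pdia3 and Hspa5 came next in that order in each group. Derl3, a member of the derlin family of degradation factors, was last in all 4 groups, with 0.864 and 0.800 CPM per kilobase in KO and WT stimulated cells and 0.976 and 1.41 in KO and WT resting cells. The order differed between stimulated and resting cells. Sdf2l1, a cochaperone of BiP, ranked 11 of 33 per kilobase in both stimulated groups, against 27 in KO resting and 22 in WT resting cells. Herpud1, which helps to assemble the degradation machinery at the ER membrane, ranked 22 in KO stimulated and 23 in WT stimulated cells, against 12 and 13 in KO and WT resting cells.

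**Figure D1:**
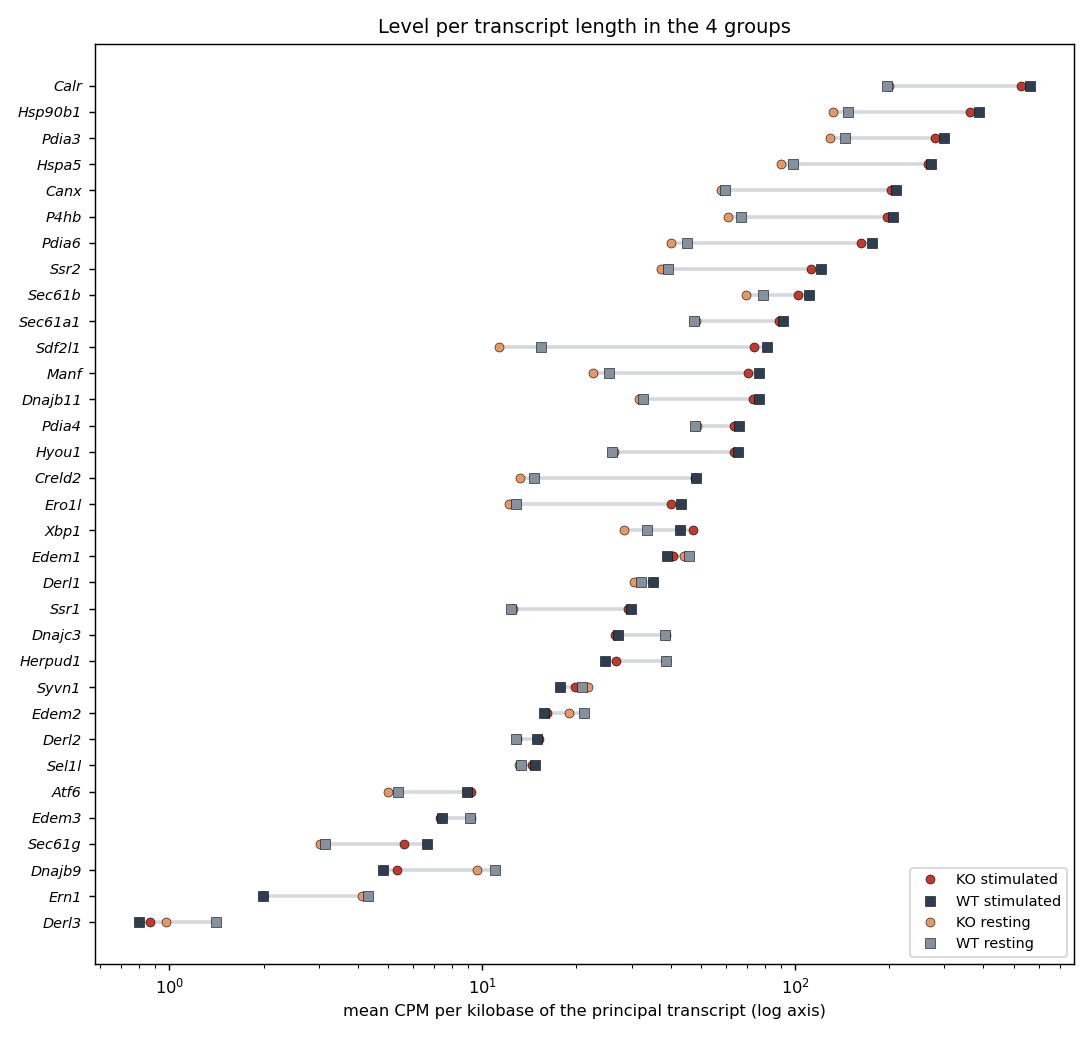
Mean level of each of the 33 genes in the 4 groups, in CPM per kilobase of the principal transcript on a log axis; each point is the mean of 3 libraries and the grey line spans the groups. Calr, Hsp90b1, Pdia3 and Hspa5 lead in every group and Derl3 is last, and most folding genes lie to the right in stimulated cells while Ern1, Dnajb9, Dnajc3 and Herpud1 lie to the left.

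Of 8 chaperones and cochaperones 6 were higher in stimulated than in resting cells in both genotypes, and Dnajb9 and Dnajc3 were lower. Both lectin chaperones and all genes of disulfide formation and translocation were higher. The sensor gene Ern1 was lower, and degradation genes went both ways. Sex-linked transcripts and the deposited table differed along with condition, so these differences cannot be ascribed to stimulation alone. In KO cells 24 of 33 members rose (39.6% of all genes tested were called higher) and 7 fell (43.2% were called lower). In WT cells 23 rose (39.3% of all genes were called higher) and 8 fell (44.8% were called lower). Calls are by edgeR's quasi-likelihood test at an adjusted p under 0.05. The same 23 genes rose in both genotypes and 7 fell in both, Xbp1 was called in KO alone, Syvn1 in WT alone and Derl3 in neither. By the stricter rule that adds a change of at least 2-fold, 15 members rose in KO (22.7% of all genes) and 1 fell (29.1%), and 16 rose in WT (23.1%) and 2 fell (31.2%). The median log2 fold change over members was 0.89 in KO and 0.95 in WT, where all genes tested had medians of -0.11 and -0.14. With library totals alone as the scaling, the medians over all genes moved to -0.44 in KO and -0.48 in WT, while the members' median stayed above that of all genes by 0.997 and 1.09, against 0.996 and 1.08 with TMM. That scaling gave 19 members higher and 10 lower in KO (31.7% and 52.2% of all genes). In WT it gave 20 higher and 11 lower (31.8% and 53.6% of all genes). The share of called members that were higher was then 65.5% in KO and 64.5% in WT, against 77.4% and 74.2% with TMM.

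**Figure D2:**
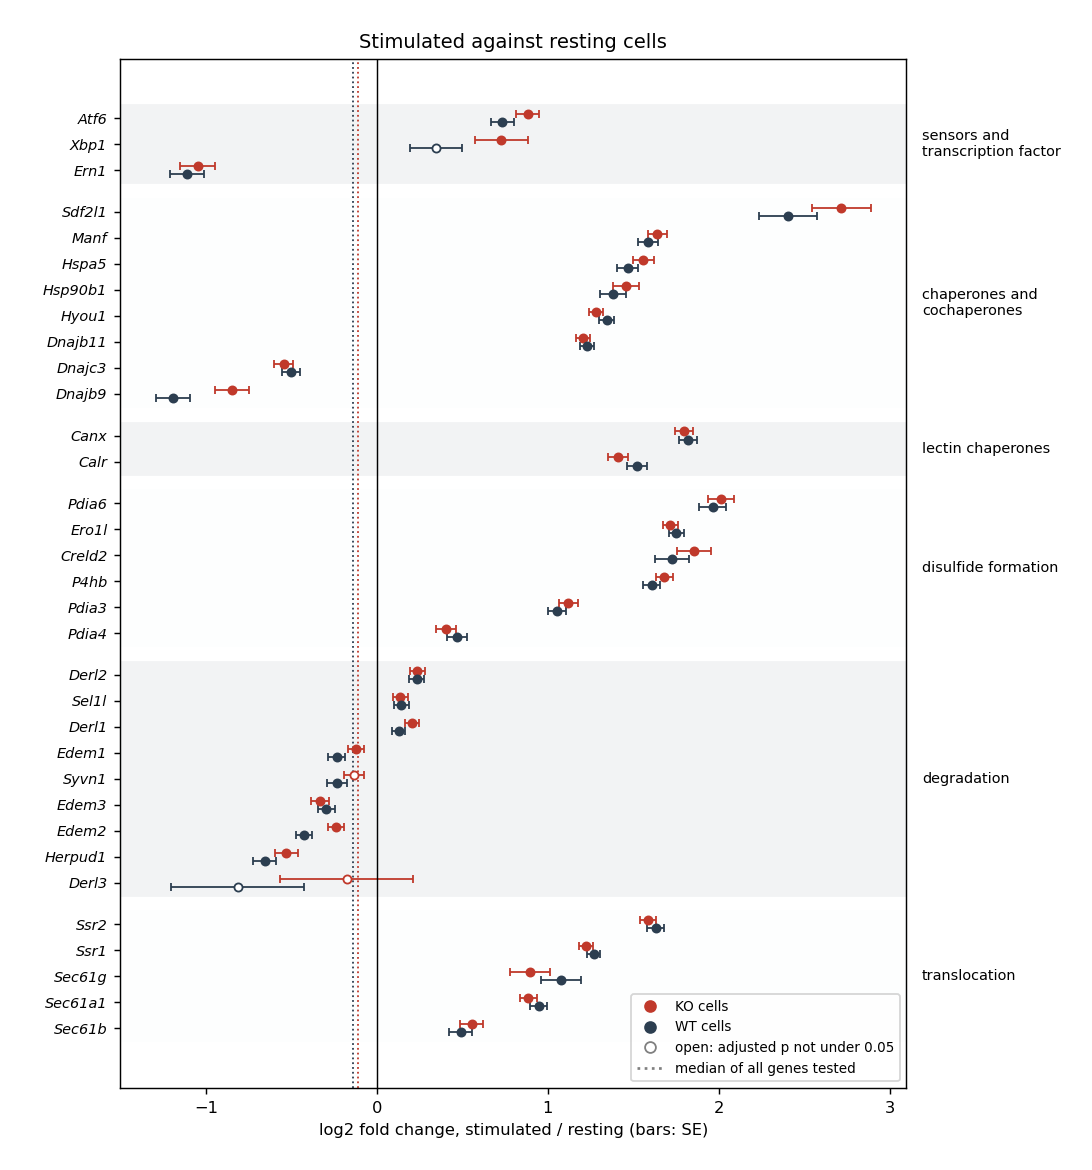
Log2 fold change of stimulated over resting cells for each gene, KO (red) above WT (dark), with standard errors; open points had an adjusted p not under 0.05, and dotted lines mark the median of all genes tested. Chaperones, disulfide and translocation genes lie between 0.40 and 2.72 apart from Dnajb9 and Dnajc3, and degradation genes lie near 0 or below; Sel1l, Derl1 and Derl2 turn below 0 in both genotypes, and Xbp1 in WT, when libraries are scaled by their totals alone.

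Of the 3 sensor and transcription factor genes, Atf6 rose and Ern1 fell. Atf6, the ER membrane sensor that is cut to release a transcription factor, measured 65.6, 66.3 and 67.9 CPM in KO stimulated, against 38.5, 36.2 and 33.7 in KO resting libraries. In WT it measured 63.3, 63.4 and 67.9 CPM in stimulated, against 43.3, 36.5 and 37.2 in resting libraries. The stimulated libraries stood apart from the resting ones in both genotypes, with log2 fold changes of 0.88 ± 0.07 and 0.73 ± 0.07 (SE; edgeR adjusted p = 4.8e-08 in KO and 3.0e-07 in WT). Ern1, the gene of the kinase and nuclease IRE1, had 14.6, 12 and 14.9 CPM in KO stimulated, against 31.6, 27.1 and 27.3 in KO resting libraries. WT libraries had 13.4, 15 and 13 CPM when stimulated, against 32.7, 30.2 and 26.7 at rest. No stimulated library reached the lowest resting one, and Ern1 fell by 1.05 ± 0.10 in KO and by 1.11 ± 0.10 in WT on the log2 scale (adjusted p by edgeR 5.7e-07 and 3.1e-07). Ern1 lies on the minus strand of chromosome 11 from 106394650 to 106487852 (mm10, as for all gene positions here).

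Xbp1 (chromosome 11, 5520659 to 5525893, plus strand) depended on the resting libraries. It measured 97.2, 102 and 102 CPM in KO stimulated, against 61.8, 61.2 and 58.2 in KO resting libraries. In WT the stimulated libraries had 92.8, 96.9 and 83.4 CPM, against 92.6, 68.3 and 53.9 at rest. The KO groups did not overlap, and Xbp1 rose by 0.73 ± 0.15 on the log2 scale there (edgeR adjusted p = 0.0013), a call lost with library totals as the scaling (log2 fold change 0.40, edgeR adjusted p = 0.056). The WT groups did overlap, through resting replicate 1, and the log2 fold change of 0.35 ± 0.15 was not called (edgeR adjusted p = 0.058). Without WT resting replicate 1 it was 0.58 and called (edgeR adjusted p = 8.4e-05), and with library totals as the scaling it turned to -0.002324. That library also had the highest sum of 5 plasma cell markers (Jchain, Sdc1, Mzb1, Tnfrsf17 and Prdm1), as described with the resting cells.

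Of 8 chaperones and cochaperones, 6 rose at least 2-fold in both genotypes (22.7% of all genes did so in KO and 23.1% in WT). Sdf2l1, on the minus strand of chromosome 16 from 17130138 to 17132383, rose most of all members. It had 82.8, 81.1 and 82.0 CPM in KO stimulated, against 12.1, 12.6 and 12.8 in KO resting libraries. WT libraries had 91.9, 87.2 and 92.2 CPM when stimulated, against 23.2, 14.6 and 13.3 at rest. The change was 6.57-fold in KO and 5.30-fold in WT (log2 fold change 2.72 ± 0.17 and 2.41 ± 0.17, edgeR adjusted p = 1.1e-07 and 2.5e-07), with the WT value at 2.26 to 2.695 when single libraries were left out. Manf, a secreted ER protein that binds BiP, had 159, 156 and 161 CPM in KO stimulated, against 49.0, 52.9 and 50.4 in KO resting libraries. WT libraries had 164, 184 and 168 CPM when stimulated, against 61.9, 55.2 and 54.9 at rest. The groups were far apart in both genotypes, by 3.12-fold in KO and 3.00-fold in WT. Antisense exons of 2 genes overlap Manf, and the sources used here do not state the use of strand in counting.

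Hspa5 encodes BiP, the HSP70 chaperone of the ER that also holds the sensors inactive. Its libraries had 986, 974 and 967 CPM in KO stimulated, against 321, 341 and 332 in KO resting cells. In WT they had 962, 1040 and 998 CPM when stimulated, against 394, 333 and 358 at rest. Hspa5 thus rose 2.95-fold in KO and 2.76-fold in WT (log2 fold change 1.56 ± 0.06 and 1.47 ± 0.06, edgeR adjusted p = 5.8e-11 and 9.6e-11). Hsp90b1, the HSP70-like nucleotide exchange factor gene Hyou1 and the BiP cochaperone Dnajb11 rose 2.31-fold to 2.75-fold in KO and 2.34-fold to 2.61-fold in WT; exons of other genes overlap Hsp90b1 on both strands, so its count is less certain. The J-domain cochaperones Dnajc3 and Dnajb9 fell instead. Dnajb9, described after its values were seen because it moved against most chaperones, had 13.5, 13.0 and 13.0 CPM in KO stimulated, against 22.9, 24.9 and 23.3 in KO resting libraries. It had 11, 13.3 and 11.2 CPM in WT stimulated, against 31.5, 25.7 and 23.9 in WT resting libraries. It fell by 0.85 ± 0.10 in KO and by 1.19 ± 0.10 in WT on the log2 scale, and Dnajc3 fell by 0.54 ± 0.05 and 0.50 ± 0.05 (edgeR adjusted p from 1.2e-07 to 3.7e-06 for these 4 values).

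**Figure D3:**
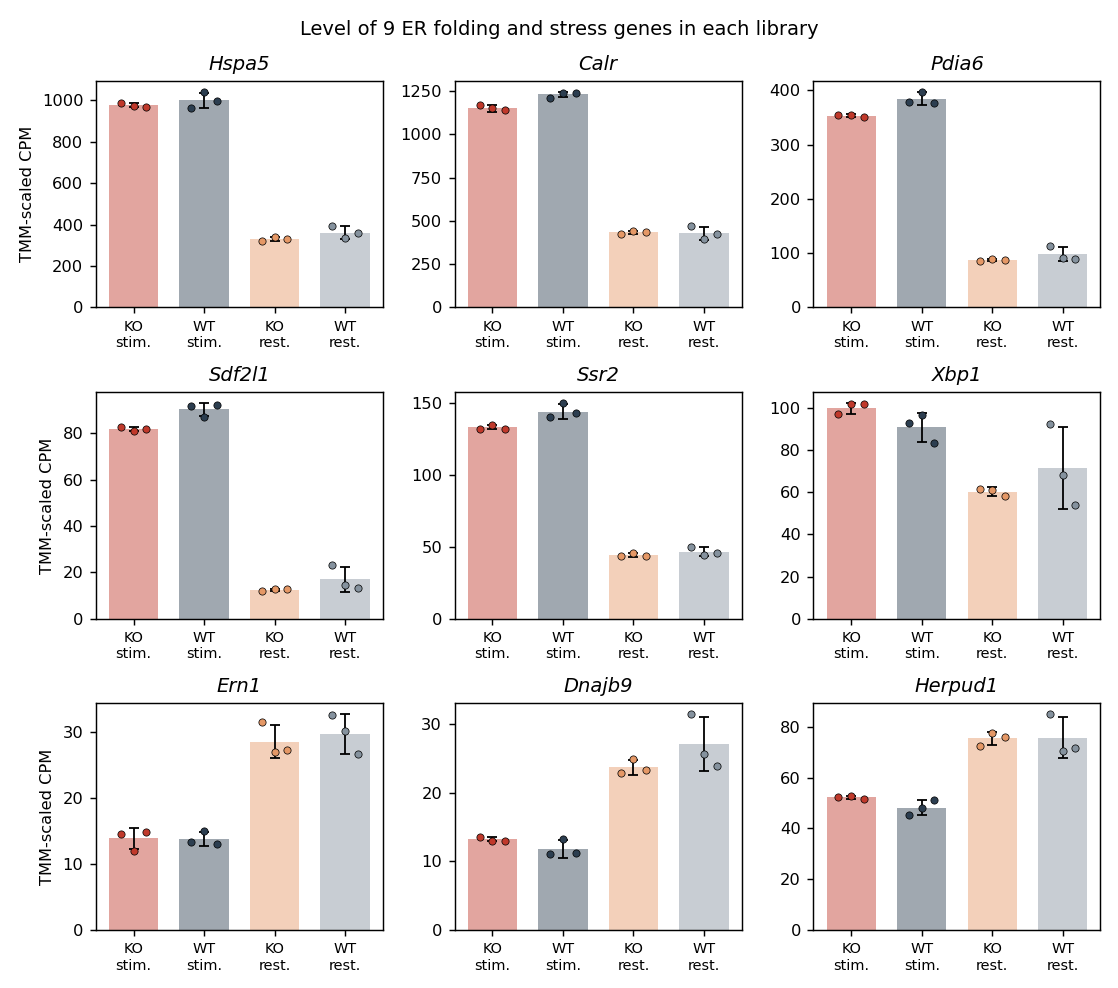
Level of 9 of the genes in each library, in TMM-scaled CPM; bars are group means, error bars the SD over 3 libraries and points the libraries, with KO stimulated, WT stimulated, KO resting and WT resting from left to right. Hspa5, Calr, Pdia6, Sdf2l1 and Ssr2 are higher in every stimulated than in every resting library, Ern1, Dnajb9 and Herpud1 are lower, and Xbp1 overlaps in WT through 1 resting library at 92.6 CPM.

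Both lectin chaperones, which retain newly made glycoproteins until they are folded, rose (39.6% of all genes did so in KO and 39.3% in WT). Calnexin (Canx) had 875, 868 and 846 CPM in KO stimulated, against 247, 253 and 247 in KO resting libraries. WT libraries had 911, 878 and 914 CPM when stimulated, against 273, 238 and 255 at rest. Its log2 fold change was 1.80 ± 0.05 in KO and 1.82 ± 0.05 in WT. Calr had 1170, 1150 and 1140 CPM in KO stimulated, against 424, 442 and 435 in KO resting libraries. WT libraries had 1210, 1240 and 1240 CPM when stimulated, against 469, 394 and 422 at rest. The groups of Canx and Calr did not overlap in either genotype, and Calr rose by 1.41 ± 0.06 in KO and 1.52 ± 0.06 in WT (edgeR adjusted p at most 1.2e-10 for the 4 values). Calr has a pseudogene, Calr-ps, with which it could share reads.

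All 6 genes of disulfide formation rose in both genotypes (39.6% of all genes rose in KO and 39.3% in WT). Pdia6, a disulfide isomerase, had 354, 354 and 350 CPM in KO stimulated, against 84.9, 89.5 and 88.0 in KO resting libraries. WT libraries had 378, 397 and 376 CPM when stimulated, against 114, 91.5 and 89.9 at rest. Pdia6 rose 4.03-fold in KO and 3.90-fold in WT, the largest change of the 6 (log2 fold change 2.01 ± 0.08 and 1.96 ± 0.08, edgeR adjusted p = 4.3e-11 and 4.9e-11). Ero1l, the oxidase that recharges disulfide isomerases, had 180, 177 and 176 CPM in KO stimulated, against 56.8, 53.2 and 52.1 in KO resting libraries. WT libraries had 187, 186 and 199 CPM when stimulated, against 55.9, 55.2 and 58.3 at rest. It rose 3.29-fold in KO and 3.37-fold in WT. Creld2, an ER stress-inducible protein with disulfide isomerase activity, had 67.5, 63.9 and 64.5 CPM in KO stimulated, against 18.1, 19.0 and 17.0 in KO resting libraries. WT libraries had 63, 70.5 and 64.5 CPM when stimulated, against 23.6, 19.2 and 16.9 at rest. It rose 3.62-fold in KO and 3.31-fold in WT, with no overlap in either. The isomerases P4hb, Pdia3 and Pdia4 rose 1.32-fold to 3.21-fold in KO and 1.39-fold to 3.05-fold in WT, Pdia4 least; the KO call of Pdia4 was lost with library totals as the scaling (log2 fold change 0.08).

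The 9 degradation genes changed by less than 2-fold where called. Their summed level was 701 ± 5.08 CPM in KO stimulated and 679 ± 10.1 in WT stimulated cells, against 738 ± 10.4 in KO resting and 755 ± 18.7 in WT resting cells (SD, n = 3 each). In KO, 3 rose and 4 fell (33.3% and 44.4%, against 39.6% and 43.2% of all genes), and in WT, 3 rose and 5 fell (33.3% and 55.6%, against 39.3% and 44.8%). These shares are near those of all genes. The risers were Derl1, Derl2 and Sel1l, parts of the channel and ubiquitin ligase complex for ER-associated degradation, with log2 fold changes of 0.14 to 0.24 in KO and 0.13 to 0.23 in WT; with library totals as the scaling all 3 lay below 0 in both genotypes, and Sel1l and Derl1 were called lower in both. Herpud1 had 52.5, 52.7 and 51.5 CPM in KO stimulated, against 72.7, 77.6 and 76.1 in KO resting libraries. WT libraries had 45.1, 48.2 and 51.0 CPM when stimulated, against 85.1, 70.5 and 71.6 at rest. No stimulated library reached a resting one, and Herpud1 fell by 0.53 ± 0.07 in KO and 0.66 ± 0.07 in WT on the log2 scale (adjusted p by edgeR 9.4e-06 and 1.2e-06). Edem2, a mannosidase-like protein that marks glycoproteins for degradation, had 36.8, 36.9 and 37.1 CPM in KO stimulated, against 44.9, 43.2 and 42.7 in KO resting libraries. WT libraries had 36.0, 35.7 and 36.7 CPM when stimulated, against 52.2, 47.1 and 46.1 at rest. Edem2 fell by 0.24 ± 0.05 in KO and 0.42 ± 0.05 in WT, and its relatives Edem1 and Edem3 fell by 0.12 and 0.33 in KO and by 0.23 and 0.30 in WT. The KO call of Edem1 was lost in 5 of 6 fits that left out 1 library, all but the one without KO resting replicate 1 (edgeR adjusted p up to 0.15). Derl3 was scarce, at 1.24, 1.32 and 0.869 CPM in KO stimulated, against 1.82, 0.954 and 1.09 in KO resting libraries. WT libraries had 1.01, 1.16 and 1.00 CPM when stimulated, against 3.04, 1.66 and 0.874 at rest. Its groups overlapped in both genotypes and it was not called in either.

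All 5 translocation genes rose in both genotypes (39.6% of all genes rose in KO and 39.3% in WT). Ssr2, a subunit of the signal sequence receptor (translocon-associated protein) complex, had 132, 135 and 132 CPM in KO stimulated, against 43.7, 45.5 and 43.6 in KO resting libraries. WT libraries had 140, 150 and 143 CPM when stimulated, against 49.8, 44.0 and 45.8 at rest. It rose 3.00-fold in KO and 3.10-fold in WT (edgeR adjusted p = 6.2e-12 and 4.3e-12); an antisense gene overlaps its exons. Ssr1, its partner subunit, had 276, 273 and 269 CPM in KO stimulated, against 120, 115 and 114 in KO resting libraries. WT libraries had 276, 280 and 278 CPM when stimulated, against 121, 111 and 114 at rest. The rise was 2.34-fold in KO and 2.41-fold in WT. Sec61g, the gamma subunit of the channel, had 9.75, 9.99 and 11.8 CPM in KO stimulated, against 5.93, 6.15 and 4.85 in KO resting libraries. WT libraries had 13.2, 12.4 and 11.5 CPM when stimulated, against 6.51, 5.55 and 5.55 at rest. It rose 1.86-fold in KO and 2.11-fold in WT, and the alpha and beta subunit genes Sec61a1 and Sec61b rose 1.85-fold and 1.47-fold in KO and 1.93-fold and 1.40-fold in WT.

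Promoter sequences were set beside these changes because the response is known to act through short DNA elements. The ER stress response element (ERSE) was searched as CCAAT, any 9 bases, then CCACG, and its variant ERSE-II as ATTGG, any 1 base, then CCACG, on both strands from 250 bases before to 50 after each start. Windows from RefSeq (GRCm38.p6) were matched for 27 of 33 members (28 windows); Atf6, Derl1, Hyou1, Manf, Sec61a1 and Ssr2 had no entry in the table used. ERSE was found at 9 members and ERSE-II at 2, where 0.119% and 0.0365% of all 32851 windows held them. The matches below read 5′ to 3′ on the strand of the match, with the fixed letters in capitals:
Hspa5: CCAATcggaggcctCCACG
Calr: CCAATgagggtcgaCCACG
Canx: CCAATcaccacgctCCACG
Pdia6: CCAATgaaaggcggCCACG
Creld2: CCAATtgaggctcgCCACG
Hsp90b1, upstream match: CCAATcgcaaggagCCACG
Hsp90b1, downstream match: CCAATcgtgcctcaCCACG
Dnajc3: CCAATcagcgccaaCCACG
Syvn1: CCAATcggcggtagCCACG
Derl3: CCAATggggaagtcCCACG
Herpud1, ERSE-II: ATTGGgCCACG
Dnajb11, ERSE-II: ATTGGcCCACG

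The Hspa5 match lies at chr2:34772025-34772043 on the gene's own plus strand, centred 56 bases before the RefSeq start; the GENCODE span of the gene begins earlier, at 34771970. The Calr match (chr8:84847075-84847093) and the Creld2 match (chr15:88819520-88819538) are on the strand opposite to the gene, while that of Canx (chr11:50325800-50325818) and that of Pdia6 (chr12:17266491-17266509) are on the gene's strand. Hsp90b1 held matches at chr10:86705638-86705656 and, on the other strand, at chr10:86705533-86705551. The Dnajc3 match is at chr14:118937827-118937845, that of Syvn1 at chr19:6046532-6046550 and that of Derl3 at chr10:75893242-75893260. ERSE-II lies at chr8:94386377-94386387 in Herpud1, before the start, and at chr16:22857852-22857862 in Dnajb11, just after it. The 250 bases before the Hspa5 start (from chr2:34771840-34772139, plus strand) show the match in its context, with the fixed letters in capitals:
Hspa5, before the start: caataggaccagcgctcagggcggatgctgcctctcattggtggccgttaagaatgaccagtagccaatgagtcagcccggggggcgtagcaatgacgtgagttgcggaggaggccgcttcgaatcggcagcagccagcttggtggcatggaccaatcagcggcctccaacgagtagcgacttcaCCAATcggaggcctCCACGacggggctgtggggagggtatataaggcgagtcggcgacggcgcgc

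The match did not go with 1 direction of change. For scale, 39.6% of all genes tested rose and 43.2% fell in KO, and 39.3% rose and 44.8% fell in WT. Of the 9 members with ERSE, 6 rose in both genotypes (Hspa5, Hsp90b1, Calr, Canx, Pdia6 and Creld2), Dnajc3 fell in both, Syvn1 fell in WT and Derl3 was called in neither. Of the 2 with ERSE-II, Dnajb11 rose and Herpud1 fell. Of 16 matched members with neither, 11 rose and 5 fell in KO, and 10 rose and 5 fell in WT. Sdf2l1, the member that rose most, was among these. The core of the UPRE, an element that XBP1 binds, was searched as TGACGTGG; its reverse complement contains the CCACG of ERSE, though not its CCAAT. It was found in 0 of the 28 member windows and in 0.676% of all windows. These are matches of letters in the windows searched and show no binding.

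Other genes of the pathway moved in the same conditions. Of 12 other stress signalling genes, 8 rose and 3 fell in KO, and 7 rose and 3 fell in WT. Among all genes tested, 39.6% were called higher and 43.2% lower in KO, and 39.3% and 44.8% in WT. Chac1, a glutathione-degrading enzyme gene induced by ATF4, lay at 3.71 ± 0.554 CPM in KO stimulated and 3.41 ± 0.0801 in WT stimulated cells, against 0.129 ± 0.0397 in KO resting and 0.148 ± 0.123 in WT resting cells (SD, n = 3 each). Atf4, the transcription factor of the PERK branch, rose 3.69-fold in KO and 3.61-fold in WT, and its target Trib3, a pseudokinase, 3.16-fold and 3.06-fold. Rtcb, the ligase that joins spliced Xbp1 mRNA, rose 2.39-fold in KO and 2.38-fold in WT. The 3 that fell, named after their values were seen, were Eif2ak3, Ddit3, the stress transcription factor CHOP, and Mbtps1, the protease that cuts ATF6. Eif2ak3 had 22.3 ± 0.868 CPM in KO stimulated and 22.4 ± 0.757 in WT stimulated cells, against 43.4 ± 2.71 and 43.1 ± 3.12 in KO and WT resting cells. Ddit3 had 9.54 ± 0.555 and 8.93 ± 0.848 CPM in KO and WT stimulated cells, against 18.1 ± 1.26 and 17.6 ± 0.357 at rest. Ern1 and Eif2ak3, genes of the sensor kinases, were thus both lower in stimulated cells.

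Genes of sugar attachment mostly rose. Of 15 N-glycosylation genes, 13 rose and 1 fell in each genotype (86.7% and 6.67%). The shares of all genes called higher and lower were 39.6% and 43.2% in KO, and 39.3% and 44.8% in WT. Mogs, the glucosidase that makes the first cut on the attached sugar, rose 4.0-fold in KO and 4.28-fold in WT. The glucosidase beta subunit gene Prkcsh and the oligosaccharyltransferase genes Rpn1 and Stt3a rose 2.63-fold to 3.05-fold in KO and 2.76-fold to 3.17-fold in WT. Of 19 other translocation genes 16 rose and 2 fell in each genotype, led in WT by the signal peptidase subunit Spcs3 (2.45-fold in KO and 2.67-fold in WT), followed there by Sec61a2, Srpr and Srp54a of the channel and the signal recognition particle pathway. Of 16 other degradation genes 8 rose and 4 fell in KO, and 7 rose and 4 fell in WT. The shares that rose, 50% in KO and 43.8% in WT, were not far from the 39.6% and 39.3% of all genes. Vcp, the ATPase that pulls chains out of the ER, rose 3.24-fold in KO and 3.15-fold in WT, its cofactor Nploc4 2.58-fold and 2.61-fold, and Fam8a1, a part of the ligase complex, fell by 0.93 and 0.97 on the log2 scale. Of 18 other folding enzymes 11 rose and 6 fell in each genotype. Fkbp11, a proline isomerase of the secretory pathway, rose by 1.87 in KO and 2.15 in WT on the log2 scale, and the scarce Fkbp14, of the same family, fell by 2.31 ± 0.96 and 3.87 ± 0.83. Among those that fell were Ero1lb, a relative of Ero1l (by 0.93 in KO and 1.27 in WT on the log2 scale), and the sulfhydryl oxidase gene Qsox1 (by 1.14 and 1.20). Ero1l and Ero1lb thus moved in opposite directions.

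The members lay close together in KO and WT stimulated cells. By edgeR 1 of 33 was higher in KO (3.37% of all genes tested were called higher) and 0 were lower (1.40% were called lower). At an unadjusted p under 0.05 there were 14 (42.4%, against 20.6% of all genes), of which 10 were lower. DESeq2 called 1 higher and 4 lower, where it called 5.11% of all genes higher and 2.86% lower. The median log2 fold change over members was -0.03, against -0.000162 over all genes. In 14 members every KO library lay below every WT library (14.6% of all genes did so) and in 5 every KO library lay above (13.4%). Apart from Derl3, no 95% interval of a member reached beyond 0.42 on the log2 scale in either direction.

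The gene called was Syvn1, the ubiquitin ligase HRD1 of ER-associated degradation, located on chromosome 19 at 6046576 to 6053712, plus strand. It had 69.8, 66.9 and 69.5 CPM in KO stimulated, against 60.5, 61.2 and 61.9 in WT stimulated libraries. All KO libraries lay above all WT libraries, and the log2 fold change was 0.17 ± 0.03, which is 1.13-fold (edgeR adjusted p = 0.019). The call was lost in 5 of 6 fits that left out 1 library, all but the one without WT stimulated replicate 2, with edgeR adjusted p from 0.0099 to 0.089. At rest Syvn1 had 73.7, 73.5 and 78.8 CPM in KO, against 78.5, 72.6 and 64.9 in WT libraries, which overlapped. Stimulated against resting, Syvn1 fell by 0.23 ± 0.06 in WT (edgeR adjusted p = 0.0026) and had a log2 fold change of -0.13 ± 0.06 in KO (edgeR adjusted p = 0.053). Exons of Mrpl49 overlap Syvn1 on the other strand.

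The members nearest to a call on the lower side were Sdf2l1, Pdia6 and Ssr2, and edgeR called none of them. Sdf2l1 had 82.8, 81.1 and 82.0 CPM in KO stimulated, against 91.9, 87.2 and 92.2 in WT stimulated libraries (log2 fold change -0.13 ± 0.03, edgeR adjusted p = 0.055). Pdia6 had 354, 354 and 350 CPM in KO, against 378, 397 and 376 in WT libraries (-0.11 ± 0.03, edgeR adjusted p = 0.056). Ssr2 had 132, 135 and 132 CPM in KO, against 140, 150 and 143 in WT libraries (-0.11 ± 0.03, edgeR adjusted p = 0.086). In each of these the KO and WT libraries did not overlap, and the fold values were 0.911 for Sdf2l1, 0.924 for Pdia6 and 0.927 for Ssr2. DESeq2 called these 3 and Calr lower (adjusted p from 0.0072 to 0.044). All 6 disulfide genes, both lectin chaperones and all 5 translocation genes had log2 fold changes below 0 and none was called by edgeR; 7 of 9 degradation genes and all 3 sensor and transcription factor genes were above 0. Without WT stimulated replicate 2, edgeR called 3 members higher (Syvn1, Xbp1 and Dnajb9) and 3 lower (Sdf2l1, Pdia6 and Ero1l), while calls over all genes were then 5.95% higher and 3.19% lower. Markers of other cells moved with genotype in the main fit, where edgeR called 3.37% of all genes higher. The 10 B cell markers summed to 754 to 783 CPM in KO stimulated and 396 to 591 in WT stimulated libraries. Only 1 of these 10 was called higher, but 9 were higher in KO at an unadjusted edgeR p under 0.05 (20.6% of all genes passed in either direction). Called higher were also 6 of 10 myeloid and 1 of 2 CD8 T cell markers. None of 5 NK cell and 5 tested erythroid markers was called. Of the 5 plasma cell markers, with sums of 33.6 to 44.0 CPM in KO and 19.6 to 44.7 in WT libraries, 0 of 4 tested were called by edgeR. The part of these cells in the genotype values was not tested.

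**Figure D4:**
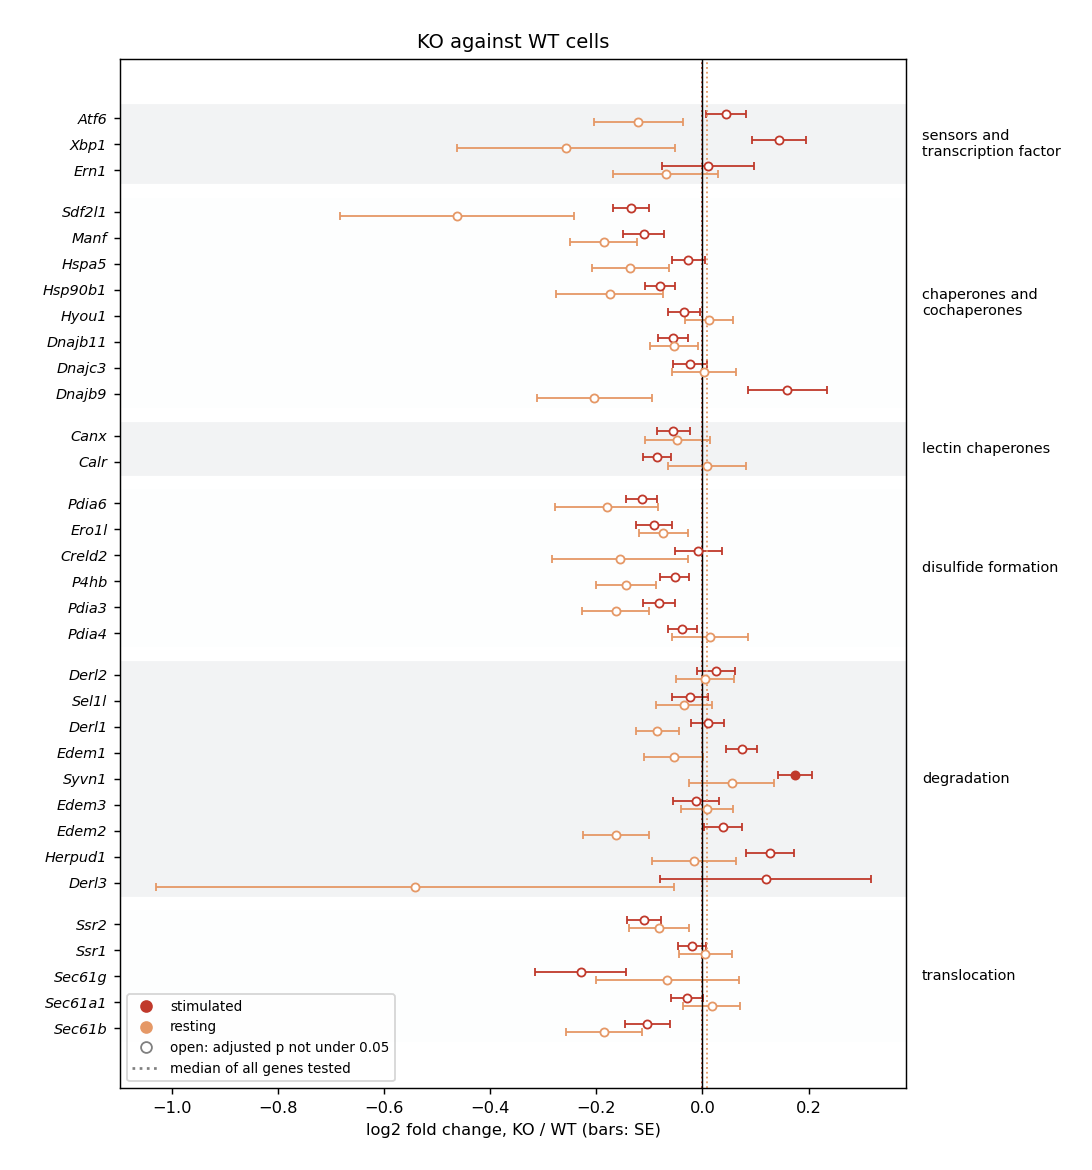
Log2 fold change of KO over WT for each gene, stimulated (red) above resting (orange), with standard errors; open points had an adjusted p not under 0.05 and dotted lines mark the median of all genes tested. Syvn1 in stimulated cells, at 0.17, is the only filled point, and the error bars are wider at rest, widest for Derl3, Sdf2l1 and Xbp1.

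The other pathway lists held 2 genes called between KO and WT stimulated cells. Prkcsh had 243, 238 and 239 CPM in KO, against 256, 263 and 264 in WT stimulated libraries, and fell by 0.11 ± 0.03 on the log2 scale (edgeR adjusted p = 0.044). Ube2j1, an ER-anchored ubiquitin-conjugating enzyme that works with HRD1, had 122, 124 and 123 CPM in KO, against 113, 116 and 111 in WT stimulated libraries, and rose by 0.13 ± 0.03 (edgeR adjusted p = 0.039). Prkcsh was the 1 called of 15 N-glycosylation genes and Ube2j1 the 1 called of 16 other degradation genes. Among all genes tested, 1.4% were called lower and 3.37% higher. None of the 12 stress signalling, 17 tested folding or 19 translocation genes of the other lists was called by edgeR. At an unadjusted edgeR p under 0.05 there were 0, 3 and 4 of them, where 20.6% of all genes tested passed. Atf4 had log2 fold changes of -0.000622 in stimulated and -0.05 in resting cells.

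In resting cells 0 of 33 members were called between KO and WT by edgeR (6 of 16637 genes, 0.0361%, were called). DESeq2 also called 0 members, where it called 518 of 14043 genes (3.69%). At an unadjusted p under 0.05 there were 5 (15.2%, near the 13.7% of all genes), namely Manf, P4hb, Pdia3, Edem2 and Sec61b, each with lower values in KO. Their log2 fold changes ran from -0.19 to -0.14 (edgeR adjusted p from 0.32 to 0.34). In 6 members every KO library lay below every WT library (10% of all genes) and in 0 above (9.86%). The median log2 fold change over members was -0.07, against 0.00876 over all genes, and it was -0.02 without WT resting replicate 1. Hspa5 had 321, 341 and 332 CPM in KO resting, against 394, 333 and 358 in WT resting libraries, which overlapped. The precision was lower than in stimulated cells, with a median standard error of 0.06 over members, against 0.03, and the interval of Sdf2l1 reached to -1.003. In the 5 other pathway lists edgeR called 0 genes, and 1, 1, 0, 1 and 2 had an unadjusted p under 0.05 among stress signalling, folding, N-glycosylation, degradation and translocation genes.

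WT resting replicate 1 had the highest sum of plasma cell markers and the highest levels of Xbp1, Sdf2l1 and Derl3 at rest. Other members were highest in that library too, among them Hsp90b1, Pdia6 and Dnajb9, at 484, 114 and 31.5 CPM. Some were instead highest in WT resting replicate 3, among them Dnajc3, Edem1, Edem3 and Sec61a1. The 5 plasma cell markers summed to 260, 66.6 and 68.1 CPM in KO resting libraries and to 411, 200 and 63.8 CPM in WT resting libraries. Jchain, the joining chain of secreted antibodies, made up most of the sum in replicate 1 of both genotypes. On the TMM scale, unlike the sums, Jchain lay at 33.0 to 195 CPM in KO and 37.4 to 318 in WT resting libraries. Tnfrsf17, the receptor BCMA, lay at 0.0878 to 0.236 CPM in KO and 0.0662 to 0.605 in WT resting libraries on that scale. By replicate in the same order, Xbp1 was at 61.8, 61.2 and 58.2 CPM in KO, against 92.6, 68.3 and 53.9 in WT. Sdf2l1 was at 12.1, 12.6 and 12.8 CPM in KO, against 23.2, 14.6 and 13.3 in WT. Derl3 was at 1.82, 0.954 and 1.09 CPM in KO, against 3.04, 1.66 and 0.874 in WT. In WT the library with the highest marker sum was highest in all 3 genes and the one with the lowest sum was lowest, while in KO replicate 1, with the highest sum, was highest in Derl3, lowest in Sdf2l1 and close to the other libraries in Xbp1. Erythroid markers summed to 1590, 224 and 145 CPM in KO and 1680, 496 and 56.5 CPM in WT resting libraries, so replicate 1 was highest there in both genotypes. Myeloid markers summed to 981, 974 and 958 CPM in KO and 2440, 1420 and 960 CPM in WT resting libraries, the same order in WT as the plasma cell markers and nearly level in KO, as Xbp1 and Sdf2l1 were. B cell markers summed to 1770, 1900 and 1880 CPM in KO and 2420, 1900 and 1250 CPM in WT resting libraries. The part of these cells in the members' values was not tested. Leaving out replicate 1 of both genotypes at rest was an alternative added after seeing the data. EdgeR then called 0 members between KO and WT at rest, where 10 of 16683 genes were called higher and 20 lower. In stimulated against resting cells, 24 members were called higher and 8 lower in each genotype. Of the 17656 genes tested, 7065 were called higher and 7391 lower in KO, and 6964 and 7731 in WT. Xbp1 in WT was among the members called higher (log2 fold change 0.58, edgeR adjusted p = 2e-04).

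**Figure D5:**
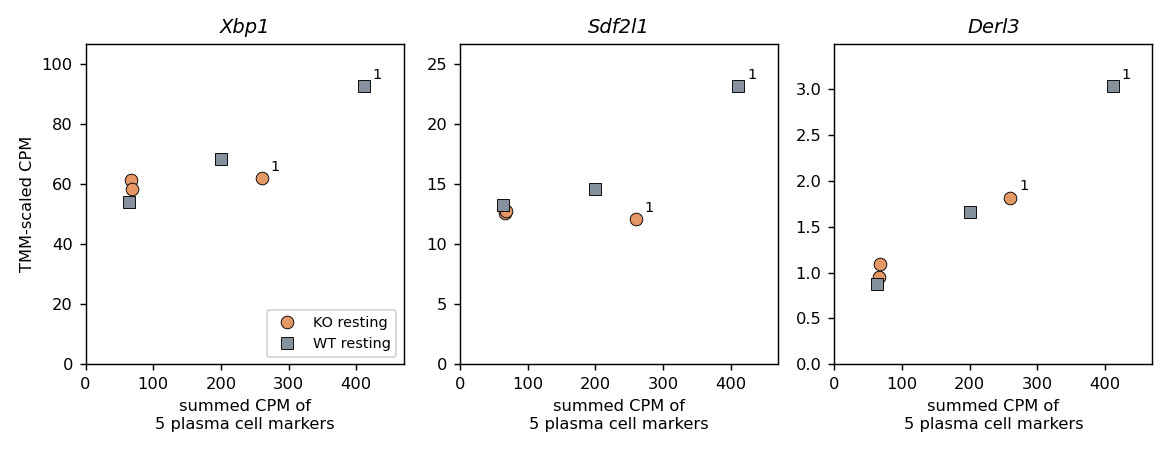
Level of Xbp1, Sdf2l1 and Derl3 (TMM-scaled CPM) against the summed CPM of 5 plasma cell markers in the 3 KO resting (circles) and 3 WT resting libraries (squares); replicate 1 of each is numbered. WT replicate 1, at a marker sum of 411 CPM, is highest in all 3 genes, at 92.6, 23.2 and 3.04 CPM, whereas KO replicate 1, at 260, stands out in Derl3 alone.

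The responses of KO and WT cells to stimulation were set against each other in 1 fit. By edgeR 0 of 33 members differed in response (121 of 17460 genes, 0.693%, did). DESeq2 called 0 members, where it called 1012 of 14400 genes (7.03%). At an unadjusted edgeR p under 0.05 there were 2 members (6.06%, below the 15.9% of all genes). These were Edem2, with a KO minus WT difference in log2 response of 0.18 ± 0.07 (edgeR adjusted p = 0.20), and Dnajb9, with 0.35 ± 0.14 (edgeR adjusted p = 0.25). The difference for Xbp1 was 0.38 ± 0.22 (95% interval -0.10 to 0.87, edgeR adjusted p = 0.42), so a call in KO and not in WT was not shown to be a difference between the genotypes. Hspa5 had a difference of 0.09 ± 0.08 and Sdf2l1 of 0.31 ± 0.23. The median over members was 0.06, against -0.00772 over all genes. Without WT resting replicate 3, Xbp1 and Edem2 were called, both with a larger response in KO, but 9.2% of all genes were called in that fit, against 6.06% of the members; without WT resting replicate 1 the median over members was -0.00431. Apart from Derl3, the intervals of the difference reached at most 0.87 from 0, which does not show that the responses were alike.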

How the data were processed

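The authors deposited RSEM expected counts (estimated counts per gene) in 2 tables, one of resting and one of stimulated libraries. Per the submitters' processing notes, bcl2fastq 2.20, cutadapt 1.18, STAR 2.7.0f and RSEM 1.3.1 were used with the mm10 build. The sources used here do not give the use of strand in counting. Counts were rounded to whole numbers, then passed through filterByExpr (10 counts a library, 15 in total) and TMM scaling; the test was the robust quasi-likelihood fit of edgeR 4.0.16 (R 4.3.3, limma 3.58.1). KO was compared with WT on the 6 libraries of a condition, and stimulated with resting cells, and the difference of the responses, in 1 fit of all 12 libraries with a mean per group. P-values were Benjamini-Hochberg adjusted over all genes tested, with a threshold of 0.05 and, for the stricter rule, a 2-fold change. Each pair of libraries of a group differed by more than sampling noise (chi-square per degree of freedom 3.79 to 132), so all 12 counted separately. Library totals were 63266477 to 76891786 counts.

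Values in every library are given for the up to 3 members of each role with the largest change of stimulated against resting WT cells, members called between KO and WT, and Hspa5, Xbp1, Ern1 and Atf6; of each other list up to 4 called genes with the largest change are named. Genes outside this rule were chosen once their values were known. The members and lists were chosen with earlier results of these data known. Alternatives were DESeq2 1.42.0, its size factors, library totals, other filters, a non-robust fit, a replicate block, other sets of libraries and each library left out. The fits were tested on simulated data. Promoter windows came from RefSeq (GRCm38.p6) and gene positions and lengths from the mm10 annotation.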

Additional observations from a re-analysis of the deposited data

How the results depend on the processing

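Between KO and WT stimulated cells, members called lower numbered 0 by edgeR (211 of 15090 genes were called lower). They numbered 1 with RLE size factors (218 of 15090) and 4 with DESeq2 (407 of 14211). With no filter there were 2 (352 of 25072 genes), and with the replicate block 2 (296 of 15090). Members called higher numbered 1 (508 of 15090 genes), against 0 when all 12 libraries were fitted together (191 of 17460). With single libraries left out, these calls ran from 0 to 3 higher and from 0 to 3 lower. Calls over all genes ran in those fits from 110 to 917 higher and from 18 to 491 lower. For the difference of responses member calls ran from 0 to 2 higher, where those over all genes ran from 24 to 905 higher. At rest the calls between KO and WT stayed at 0. For stimulated against resting cells with single libraries left out, member calls were 24 higher and 6 to 7 lower in KO. In WT they ran from 23 to 24 higher and 8 to 9 lower. Over all genes those fits gave 6769 to 6873 higher and 7235 to 7409 lower in KO, and 6724 to 6953 and 7593 to 7855 in WT. With library totals, 19 members were higher and 10 lower in KO, and 20 higher and 11 lower in WT. Of the 17460 genes tested, 5537 were then higher and 9110 lower in KO, and 5544 and 9351 in WT. With library totals as the scaling, the log2 fold change of stimulated over resting cells turned below 0 in KO for Sel1l (-0.1895), Derl1 (-0.1200) and Derl2 (-0.09056), and in WT for Sel1l (-0.1966), Derl1 (-0.2102), Derl2 (-0.1066) and Xbp1 (-0.002324); the all-gene median moves down with this scaling. The cause of the other changes was not tested. Pairing was checked on each library's deviations, in log CPM, from the mean of its own group. Between same-numbered KO and WT libraries these deviations correlated at 0.33, -0.11 and 0.27 at rest. When stimulated they correlated at -0.029, 0.0052 and 0.021. At rest, the deviations of KO replicates 1 and 3 correlated best with those of the WT library of the same number. Those of KO replicate 2 correlated best with those of WT replicate 3. The main fits treated all libraries as unpaired. With the replicate block, Sdf2l1 and Pdia6 were called lower in KO stimulated cells, and Xbp1 was called higher in WT stimulated than in WT resting cells. With 3 libraries a group, the intervals given bound what a missing call leaves possible, and Derl3 is limited by its low counts.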
